A study of Mus musculus with 9 samples.

Results

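The cholesterol synthesis and uptake genes examined here are 8 genes of the intestinal epithelium, chosen by name and with earlier results of these data known. Hmgcs1, Idi1, Fdft1, Sqle and Lss encode enzymes of cholesterol synthesis. Srebf2 and Insig1 encode regulators of that pathway, and Npc1l1 encodes the transporter that takes dietary cholesterol into the absorptive cell. All 8 were among the 29288 genes of the count table, and all 8 passed the filter on low counts that left 18933 genes for testing. The 9 libraries came from 9 female wild-type C57BL/6J mice, with 3 mice in each of 3 groups. Control mice received phosphate-buffered saline (PBS) and were sampled at 18 h. Mice of the 18h-αGal and 72h-αGal groups received 2 µg αGalCer, a glycolipid that activates natural killer T cells through CD1d, by the intraperitoneal route, and were sampled 18 h or 72 h later. RNA was sequenced in bulk from crypt cells of the proximal small intestine, sorted as live cells positive for EpCAM and negative for CD45, CD31 and Ter119, that is, intestinal epithelial cells (IECs). No PBS group was sampled at 72 h, so an effect of αGalCer at 72 h cannot be told apart from the time of sampling.

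Cells make cholesterol from acetyl-CoA through a long chain of enzymes that is controlled by the transcription factor SREBP-2, the product of Srebf2. When membranes of the endoplasmic reticulum hold enough sterol, INSIG proteins keep the SCAP carrier and SREBP there. When sterol falls, SREBP travels to the Golgi, is cut, and its free end enters the nucleus to switch on the synthesis enzymes and Insig1 itself. The absorptive enterocyte can also take cholesterol from the gut lumen through NPC1L1, at the brush border.

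The libraries held between 8887861 and 32722293 counts, a 3.68-fold range, so that 3 counts corresponded to between 0.0917 and 0.338 CPM (a gene's share of its library's counts, scaled to the usual round total). Control replicate 3 was the smallest library and control replicate 1 the largest. The lowest raw count of any of the 8 genes in any library was 148, for Idi1 in control replicate 3. Epcam, the epithelial marker of the sort, stood at 880 to 1150 CPM. Ptprc, which encodes CD45, had 6 to 50 raw counts in a library, and Pecam1, which encodes CD31, had 14 to 53. In bulk samples, fewer cells of a type and less RNA per cell cannot be told apart. Summed markers of cell types differed between libraries too. The summed CPM of 18 enterocyte markers was lowest in 72h-αGal replicate 3, at 7305, and highest in control replicate 3, at 25500, and that of 11 crypt stem cell markers was lowest in 18h-αGal replicate 3, at 897.1, and highest in 72h-αGal replicate 3, at 5888.

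Promoter sequences are shown because most of the 8 genes moved together and SREBP-2 acts at short elements close to the start of transcription. Whether SREBP-2 had a part in these changes was not tested. RefSeq promoter windows of GRCm38.p6, each 250 bases before and 50 after the annotated start, were found for 6 of the 8 genes, and Sqle and Fdft1 had no entry. The strict sterol regulatory element TCACNCCAC, searched on both strands, was present in 1.24% of all 32851 windows and in 1 of the 6, that of Hmgcs1, starting 137 bases before the annotated start. The shorter core CACNCCAC, contained in the strict form, was present in 6.24% of all windows and in those of Hmgcs1 and Insig1; in Insig1 it lay on the reverse strand, 9 bases before the start. The CCAAT box, bound by the NF-Y cofactor of SREBP, was found in all 6 windows and in 37.4% of all windows. The E-box CACGTG was found in Insig1 and in 7.15% of all windows. A match gives only letters in a window and does not show binding. The bases upstream of the start are printed 5′ to 3′ on the gene's strand. Capitals mark the sterol element and CCAAT in Hmgcs1, the core, CCAAT and CACGTG in Insig1, and CCAAT (as ATTGG where it lies on the reverse strand) in Lss and Npc1l1. Hmgcs1 (chr13:119690101-119690350) and Insig1 (chr5:28071162-28071411) are given over 250 bases on the plus strand, and Lss (chr10:76531455-76531604, plus strand) and Npc1l1 (chr11:6230246-6230395, minus strand) over the 150 bases nearest the start. The 30 bases that follow the annotated start were found in GENCODE transcripts for 4 of the 6 genes, and not for Hmgcs1 or Npc1l1, so those starts may not be the ones the counts come from.
Hmgcs1: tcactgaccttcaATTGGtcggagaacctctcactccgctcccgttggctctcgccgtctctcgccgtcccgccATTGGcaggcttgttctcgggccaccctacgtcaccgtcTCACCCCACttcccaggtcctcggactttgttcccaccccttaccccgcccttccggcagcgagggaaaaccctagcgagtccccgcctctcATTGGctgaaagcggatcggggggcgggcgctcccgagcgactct
Insig1: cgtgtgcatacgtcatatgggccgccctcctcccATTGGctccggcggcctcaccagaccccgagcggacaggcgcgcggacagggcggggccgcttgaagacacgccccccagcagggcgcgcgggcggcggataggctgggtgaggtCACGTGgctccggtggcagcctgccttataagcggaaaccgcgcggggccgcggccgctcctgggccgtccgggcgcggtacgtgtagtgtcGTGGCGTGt
Lss: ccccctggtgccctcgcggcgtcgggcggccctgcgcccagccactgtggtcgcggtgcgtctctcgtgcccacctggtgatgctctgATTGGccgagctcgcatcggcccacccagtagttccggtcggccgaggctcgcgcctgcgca
Npc1l1: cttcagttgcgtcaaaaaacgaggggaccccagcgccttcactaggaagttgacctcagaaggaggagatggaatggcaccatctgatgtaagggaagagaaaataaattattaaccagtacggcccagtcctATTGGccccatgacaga

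Levels between genes were compared per length, as CPM per kilobase of the union of a gene's annotated exons. In control IECs, Npc1l1 stood far above the other 7 genes, at 163 ± 55.6 (SD, n = 3) and with control libraries between 120 and 225. Hmgcs1 followed at 24.7 ± 1.07, with libraries between 24.0 and 25.9, and did not overlap its neighbours. Insig1 (22.2 ± 1.67) and Srebf2 (21.1 ± 1.65) came next and their control libraries overlapped. Fdft1 (7.96 ± 0.380), Sqle (7.0 ± 0.878) and Idi1 (6.46 ± 1.78) formed a lower group whose control libraries overlapped one another. Lss was lowest, at 2.53 ± 0.692, with libraries between 2.12 and 3.33 and none reaching the lowest Idi1 library at 4.69. At 18 h after αGalCer the per-length level of Insig1 was 40.5 and that of Hmgcs1 34.7, so that Insig1 stood above Hmgcs1 in the group means, whereas at 72 h they stood at 25.2 and 24.5. The union counts all isoforms, so the levels carry the error of that length.

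What NKT cell activation in the mouse did to these genes in IECs was addressed first by setting 18h-αGal against control. Sqle, Insig1, Lss and Hmgcs1 rose, by between 1.44-fold and 1.87-fold. Idi1, Fdft1 and Srebf2 were higher in every 18h-αGal library than in every control library but did not pass the test, and Npc1l1 showed no such separation. Thus 4 of the 8 genes were called higher and 0 lower by edgeR's quasi-likelihood test at a Benjamini-Hochberg adjusted p under 0.05 over all genes. Among all 18933 genes, 3.27% were called higher and 2.69% lower. The groups did not overlap, upwards, for 7 of the 8 genes, against 11.5% of all genes. Since the 8 genes were chosen with earlier results of these data known, these shares do not test the set against all genes. The median log2 fold change over the 8 genes was 0.53, and over all genes it was -0.03. The comparison of normalised counts, which are raw counts divided by 1 factor per library, is given gene by gene in the order of the pathway.

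**Figure D1:**
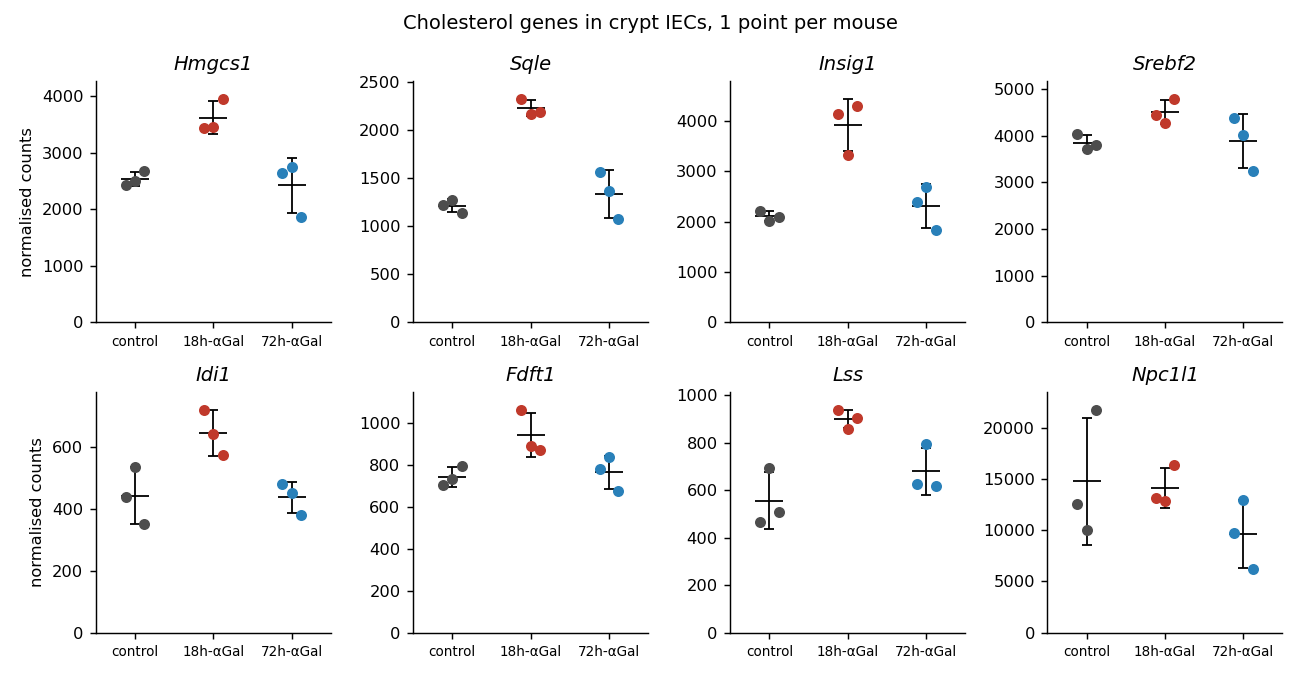
Normalised counts of the 8 genes (y axis, linear and from 0, a scale of its own in each panel) in the control, 18h-αGal and 72h-αGal groups (x axis), with 1 point per mouse, the mean as a horizontal bar and ± SD as whiskers. The 3 libraries at 18 h lie above the 3 control libraries in 7 panels, and in the Npc1l1 panel control replicate 3, at 21750, lies above every other library.

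Hmgcs1 makes HMG-CoA, an early intermediate of the pathway. Its normalised counts were 2431, 2499 and 2679 in control, 3443, 3464 and 3956 in 18h-αGal, and 2646, 2748 and 1870 in 72h-αGal. The 18 h libraries stood clear of both other groups, and 72h-αGal replicate 3 was the lowest of all. The rise at 18 h was 0.52 ± 0.14 on the log2 scale (SE, edgeR adjusted p = 0.0341), or 1.44-fold. This call was lost under 9 of 19 alternative settings, which included leaving out control replicate 1 or 2, any of the 3 18h-αGal libraries, or 72h-αGal replicate 1, while the log2 difference stayed between 0.46 and 0.56 and the adjusted p between 0.00555 and 0.129.

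Idi1 interconverts the activated isoprene units from which all later intermediates are built. Its normalised counts were 438.7, 536.3 and 351.9 in control and 721.3, 642.3 and 574.0 in 18h-αGal, followed by 480.7, 451.8 and 381.9 in 72h-αGal. The lowest library at 18 h thus lay above the highest control. The log2 difference of 0.55 ± 0.19 at 18 h did not pass the correction (edgeR adjusted p = 0.111). Of the 50-base words of Idi1's exons, 17.02% also occurred in another gene, chiefly the pseudogene Idi1-ps1, so reads from there are uncertain.

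Fdft1, or squalene synthase, commits the isoprenoid chain to sterols. Its normalised counts were 701.3, 733.7 and 794.0 in control, 1062, 890.2 and 870.6 in 18h-αGal, and 777.3, 835.1 and 676.3 in 72h-αGal. The 18h-αGal libraries were above all others, with replicate 1 the highest. The log2 difference at 18 h was 0.35 ± 0.15, which did not pass (edgeR adjusted p = 0.182). Of the exon bases of Fdft1, 24.78% overlap the opposite-strand gene Ctsb, and with no strand setting stated, reads from there cannot be told apart.

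Sqle, the epoxidase that opens the oxygen-dependent steps and is the target of terbinafine-type inhibitors in fungi, rose at 18 h. Control libraries held 1222, 1268 and 1136 normalised counts, 18h-αGal libraries 2320, 2167 and 2188, and 72h-αGal libraries 1563, 1360 and 1068. Every 18h-αGal library lay above every other library. The rise was 0.89 ± 0.14 on the log2 scale, or 1.85-fold with an interval of 2 SE from 1.53 to 2.24 (edgeR adjusted p = 0.00201), and the call held under all 19 alternatives, between 0.82 and 0.93.

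Lss closes the ring to lanosterol. Its normalised counts were 466.9, 692.9 and 508.8 in control, 937.0, 858.8 and 906.5 in 18h-αGal, and 626.7, 794.7 and 619.6 in 72h-αGal. The 18h-αGal libraries lay close together above both other groups, while the other groups overlapped. The rise at 18 h was 0.70 ± 0.18, or 1.63-fold (edgeR adjusted p = 0.0294). It was no longer called when only both groups compared were fitted, or without control replicate 1 or 3 or 18h-αGal replicate 1 or 2, with log2 differences from 0.59 to 0.90 and adjusted p between 0.00691 and 0.132 over the 19 alternatives.

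Insig1, a sterol sensor that holds SREBP back and is itself an SREBP target, had 2218, 2014 and 2099 normalised counts in control, 4138, 3324 and 4294 in 18h-αGal, and 2389, 2694 and 1841 in 72h-αGal. All libraries at 18 h were above all others, with replicate 2 the lowest of them. The rise was 0.90 ± 0.14 on the log2 scale, or 1.87-fold with an interval of 2 SE from 1.53 to 2.27 (edgeR adjusted p = 0.00212), and the call held under all 19 alternatives. Srebf2, its counterpart, held 4031, 3712 and 3806 normalised counts in control, 4455, 4276 and 4793 in 18h-αGal, and 4380, 4015 and 3251 in 72h-αGal. The groups at 18 h and in control were separate but near each other. The log2 difference of 0.23 ± 0.12 did not pass (edgeR adjusted p = 0.271), and no alternative called it.

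Npc1l1 had 12530, 10010 and 21750 normalised counts in control, 13100, 12880 and 16370 in 18h-αGal, and 9704, 12900 and 6259 in 72h-αGal. All 3 groups overlapped. The control libraries alone had a coefficient of variation of 41.8%, whereas that of the other 7 genes in control was between 4.26% and 21.6%. The log2 difference at 18 h was -0.05 ± 0.33 (edgeR adjusted p = 0.955). The interval of 2 SE in fold ran from 0.608 to 1.53, so the values do not separate no change from a change within it. Without control replicate 3, the smallest library, the difference was 0.32, also not called, within a range from -0.26 to 0.32 over the alternatives.

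**Figure D2:**
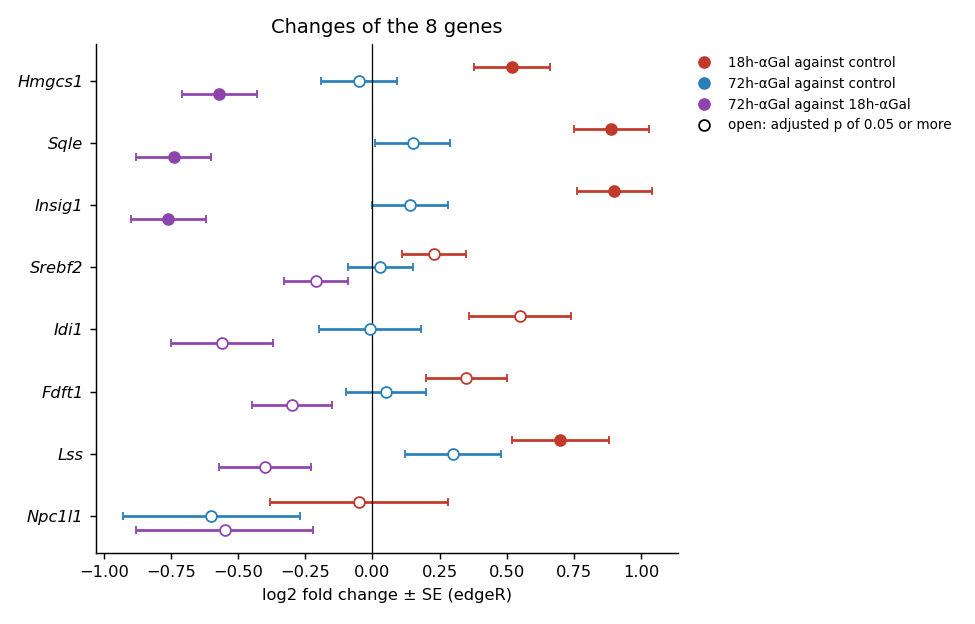
Log2 fold change ± SE from edgeR (x axis) for the 8 genes (y axis) in 3 comparisons, which share groups, with filled points for adjusted p under 0.05 and open points otherwise. Sqle and Insig1 lie farthest from 0 at 18 h (0.89 and 0.90), the 72h-αGal against control points of the 7 genes above Npc1l1 lie between -0.05 and 0.30, and the whiskers of Npc1l1 are the widest.

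At 72 h none of the 8 genes passed the test against control. In that comparison 0 of the 8 genes were called by edgeR, 0 had an unadjusted p under 0.05, 0 were called under any of the 19 alternatives (DESeq2 and limma-voom included), and the groups overlapped for all 8. Of all genes, 0.0264% were called lower and 0 higher, which is 5 genes. The log2 differences were -0.05 ± 0.14 for Hmgcs1, 0.15 ± 0.14 for Sqle, 0.14 ± 0.14 for Insig1, 0.03 ± 0.12 for Srebf2, -0.01 ± 0.19 for Idi1, 0.05 ± 0.15 for Fdft1 and 0.30 ± 0.18 for Lss. Among these genes Lss had the largest log2 difference from control, which was not called (edgeR adjusted p = 0.881). For Npc1l1 the log2 difference was -0.60 ± 0.33 (edgeR adjusted p = 0.881), an interval of 2 SE in fold from 0.416 to 1.05. It was -0.22 without control replicate 3, -0.37 without 72h-αGal replicate 3 and -0.86 without 72h-αGal replicate 2, which span the range over the 19 alternatives, and none was called. Of these libraries, 72h-αGal replicate 3 was the lowest of its group for all 8 genes. It also had the lowest enterocyte sum and the highest stem cell sum of all libraries. What part these marker sums had in the 72 h values was not tested.

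Setting the 72 h libraries directly against the 18 h libraries tested whether the levels at both times differed. Insig1 fell by 0.76 ± 0.14 on the log2 scale (edgeR adjusted p = 0.00405), Sqle fell by 0.74 ± 0.14 (edgeR adjusted p = 0.00405) and Hmgcs1 fell by 0.57 ± 0.14 (edgeR adjusted p = 0.0146). These 3 of the 8 genes were called lower and 0 higher, where 6.04% of all genes were called lower and 4.18% higher. The groups did not overlap, downwards, for 6 of the 8 genes, all but Srebf2 and Npc1l1, against 16.3% of all genes. Here too the choice of the 8 genes makes these shares description only. Idi1 at -0.56 ± 0.19 (adjusted p = 0.081), Lss at -0.40 ± 0.17 (0.174), Fdft1 at -0.30 ± 0.15 (0.23), Srebf2 at -0.21 ± 0.12 (0.299) and Npc1l1 at -0.55 ± 0.33 (0.374) did not pass. This comparison reuses the 18h-αGal libraries, so a library that is high there raises the apparent rise at 18 h and the fall afterwards alike. The calls for Sqle and Insig1 held under all 19 alternatives, and that for Hmgcs1 was lost without 72h-αGal replicate 3 (adjusted p = 0.0695, within 0.0016 to 0.0695 over the alternatives).

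Other enzymes of the pathway mostly lay on the same side of 0 at 18 h, but few were called. Of 20 sterol synthesis enzymes, 4 were called higher at 18 h and 0 lower (3.27% and 2.69% of all genes), 17 had a log2 difference above 0 (47.6% of all genes), and the median was 0.46. An unadjusted edgeR p under 0.05 was found for 11 of the 20 (20.8% of all genes). This list too was chosen with earlier results of these data known, so the shares are description only. Among the 15 that are not members of the 8 genes, 1 was called higher, 12 lay above 0 and 3 below, and the median was 0.41. For 7 of these 15 every 18h-αGal library lay above every control library, against 11.5% of all genes. The summed level of the 20 enzymes was 922.7 to 1073 CPM in control, 1240 to 1365 in 18h-αGal and 892.6 to 1041 in 72h-αGal. The 18 h libraries thus stood above all the others, in a sum that includes Hmgcs1, Idi1, Fdft1, Sqle and Lss. The count of 4 was 1 without control replicate 1 or without 18h-αGal replicate 1, and 2 without control replicate 2 or 18h-αGal replicate 2.

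Msmo1, the C-4 methyl sterol oxidase, held 943.2, 850.5 and 1010 normalised counts in control, 1582, 1269 and 1454 in 18h-αGal, and 917.4, 959.1 and 730.0 in 72h-αGal. Its libraries at 18 h were above all others. It rose by 0.63 ± 0.15 (edgeR adjusted p = 0.0199), and that call was lost only without control replicate 1 or 2 or 18h-αGal replicate 1 among the 19 alternatives. Cyp51, the lanosterol demethylase, at 0.59 ± 0.17 (adjusted p = 0.0552) lay just outside the threshold. Of its exon bases, 21.1% overlap an opposite-strand gene, and reads from there cannot be told apart. Fdps, upstream of squalene, gave 0.99 ± 0.50 and was too variable to be called, its control libraries having 11.89 to 79.88 normalised counts. At 72 h against control Fdps gave 0.95 ± 0.50, also not called (edgeR adjusted p = 0.863), though the groups did not overlap.

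At 72 h against control none of the 20 enzymes was called by edgeR, and their median log2 difference was -0.02, while 1 had an unadjusted p under 0.05. Against 18h-αGal, 7 of the 20 were called lower and 0 higher, with a median of -0.50, where 6.04% of all genes were called lower and 4.18% higher. Besides Hmgcs1 and Sqle these were Acat2, Msmo1, Ebp, Sc5d and Dhcr7, of which Msmo1, Ebp, Sc5d and Dhcr7 act after lanosterol. Of the 50-base words of Acat2's exons, 18.13% also occurred in other genes, chiefly Acat3, so reads from there are uncertain. Msmo1 fell by 0.72 ± 0.15 (edgeR adjusted p = 0.00664), from 1435 ± 157 to 868.8 ± 122 normalised counts (SD, n = 3). The count of 7 was 2 without 72h-αGal replicate 3 and 4 without 18h-αGal replicate 1 or 2. Ebp, Sc5d and Dhcr7 lay below 0 at 72 h against control too, at -0.25, -0.27 and -0.25, where none of them passed.

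**Figure D3:**
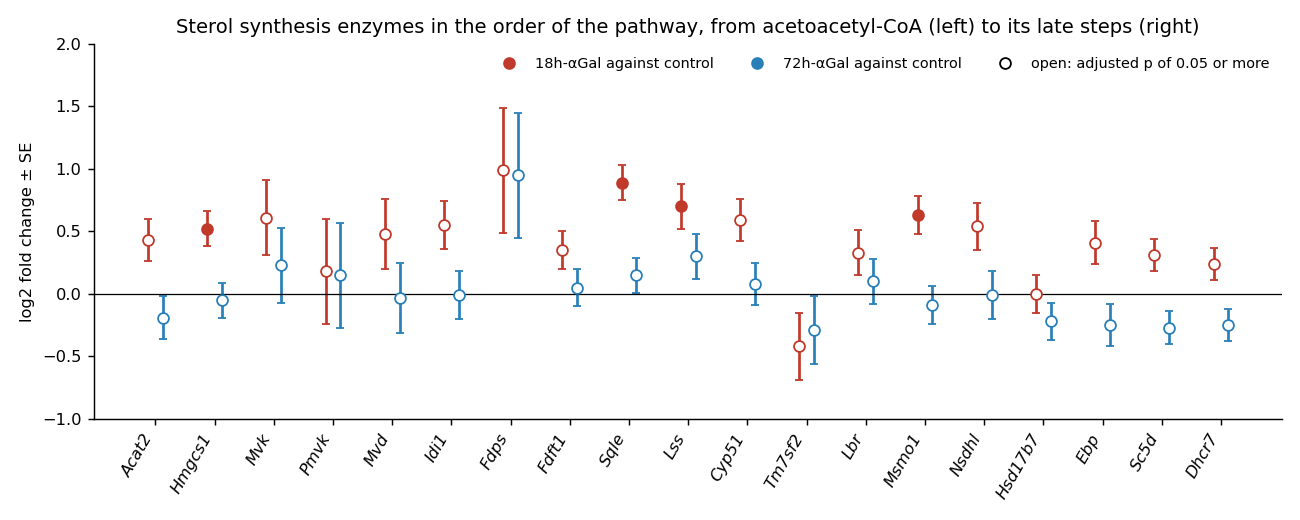
Log2 fold change ± SE from edgeR (y axis) of 19 sterol synthesis enzymes (x axis, from the entry of the pathway at the left to its late steps at the right, with Acat1 left out) for 18h-αGal and 72h-αGal against control, filled where adjusted p is under 0.05. Red points lie above 0 for most enzymes while blue points scatter around 0, and Fdps, Mvk and Pmvk have wide errors.

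Of 19 genes that process or regulate SREBP, 2 were called higher at 18 h, Insig1 and Vcp, and 0 lower, with a median of 0.18, where 3.27% of all genes were called higher and 2.69% lower. Vcp, the ATPase that extracts proteins from the endoplasmic reticulum in many degradation paths, rose by 0.49 ± 0.10 (edgeR adjusted p = 0.00838), from 4538 ± 187 to 6339 ± 118 normalised counts, though 28.15% of the 50-base words of its exons also occurred in other genes, chiefly Vcp-rs. Insig2, the paralogue of Insig1, had 210.3 ± 23.7 normalised counts in control and 295.6 ± 32.0 at 18 h, a log2 difference of 0.51 ± 0.22 (adjusted p = 0.203). Scap, the carrier of SREBP, gave 0.23 ± 0.13 (0.364), and Srebf1, the paralogue that directs fatty acid synthesis, gave 0.07 ± 0.13 (0.816). At 72 h against control 0 of the 19 were called.

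Uptake and trafficking genes showed no common direction. Of 28 listed genes, 0 were called higher at 18 h and 1 lower, Cd36, by edgeR, with 4 at an unadjusted p under 0.05 and a median of -0.06. Of all genes 2.69% were called lower and 20.8% had an unadjusted p under 0.05, so these counts were near or under the background. Cd36, a fatty acid and lipoprotein scavenger receptor, fell by 2.51 ± 0.45 (edgeR adjusted p = 0.00507), from 218.5, 165.2 and 359.0 to 30.27, 32.34 and 68.99 normalised counts.

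Scarb1, the HDL receptor, had 464.6, 348.4 and 342.3 normalised counts in control and 174.9, 264.2 and 177.3 in 72h-αGal, which did not overlap, but the log2 difference of -0.90 ± 0.26 was not called (edgeR adjusted p = 0.708). Among 13 genes of cholesterol efflux and targets of the liver X receptors, 0 were called in any of the 3 comparisons by edgeR. At 18 h, at 72 h and between both times, 2, 0 and 1 had an unadjusted p under 0.05. The shares of all genes were 20.8%, 5.94% and 24.3%, so these counts were not above the background. Of the 13, 10 lay below 0 at 18 h and 11 at 72 h against control, where 47.6% and 50.3% of all genes lay above 0. Abca1, which exports cholesterol to lipid-poor apolipoprotein, gave -1.65 ± 0.59 at 18 h (adjusted p = 0.151), with control replicate 3 at 943.8 normalised counts against 182.7 and 235.4 in the other controls. Abcg5 and Abcg8, the partner half-transporters that return sterol to the lumen, gave -0.50 ± 0.31 and -0.64 ± 0.35, neither called.

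Of 18 tested genes of fatty acid synthesis, which SREBP-1 controls, 1 was called higher at 18 h and 1 lower, with a median of 0.34. These counts called are near the 3.27% and 2.69% of all genes. An unadjusted edgeR p under 0.05 was found for 11 of the 18 (20.8% of all genes), and 13 lay above 0 (47.6% of all genes). Scd2, a stearoyl-CoA desaturase, rose by 2.69 ± 0.27 (6.43-fold, edgeR adjusted p = 0.000214), from 360.0, 489.8 and 442.2 to 3610, 2184 and 2442 normalised counts, and stood at 424.0, 468.0 and 236.2 at 72 h. Acss2, which makes acetyl-CoA from acetate, fell by 0.58 ± 0.14 (edgeR adjusted p = 0.0212), a call lost under 5 of 19 alternatives, namely with only both groups fitted or without control replicate 1 or 2 or 18h-αGal replicate 1 or 2 (adjusted p from 0.00507 to 0.112). In the isoprenoid branch, which leaves the pathway for dolichol, ubiquinone and protein prenylation, 0 of 14 genes were called at 18 h by edgeR, with 2 at an unadjusted p under 0.05 (20.8% of all genes) and a median of 0.21.

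Over the 9 libraries the 7 synthesis and regulator genes varied together. The Pearson r of log2 CPM for their 21 pairs lay between 0.546 and 0.949, with a median of 0.819. For the 7 pairs that include Npc1l1 it lay between 0.0189 and 0.62, with a median of 0.407. These are descriptions over 9 libraries that share groups, so the change at 18 h enters every pair. The 10 genes most like the mean of the 7, of 11137 genes with a mean of at least 100 raw counts, were Chchd4, Trir, Cltb, Stt3b, Emg1, H2-Q10, Pmpca, Scd2, Got1 and Psmb1, with r from 0.976 down to 0.957. Msmo1 stood at rank 49. Over gene lists, the median r with the mean of the 7 was 0.861 for 12 ranked genes induced by interferon-γ and 0.618 for 10 enteroendocrine markers. It was 0.319 for the 18 enterocyte markers and -0.653 for the 11 stem cell markers. For the other cell type lists with a value it lay between -0.0641 and 0.479. The change at 18 h enters these values too.

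The 10 genes most like Npc1l1 were Ubap1, Cyp3a13, Mep1b, Efcab14, Apoa1, Slc3a2, Cdhr2, Cyp4f14, Tmem120a and Ttyh2, with r from 0.997 down to 0.977. Several are known from the brush border or from lipid export, such as Mep1b, a brush border protease subunit, Cdhr2, a microvillar cadherin, and Apoa1, an apolipoprotein. Mttp, which loads lipid onto apolipoprotein B, stood at rank 16. The median r with Npc1l1 was 0.925 over the 18 enterocyte markers and -0.713 over the 11 stem cell markers.

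Npc1l1 was high in the libraries where enterocyte transcripts were high. It was 1029 CPM in control replicate 3, where the enterocyte markers summed to 25500 CPM, and 350.7 CPM in 72h-αGal replicate 3, where they summed to 7305. Between the highest and lowest library Npc1l1 differed 2.934-fold and the marker sum 3.491-fold. Per 1000 CPM of the enterocyte sum, Npc1l1 stood at 42.68, 49.61 and 40.35 CPM in control, 41.38, 47.61 and 38.4 in 18h-αGal, and 48.58, 50.13 and 48.01 in 72h-αGal, a 1.305-fold range in all. Both αGalCer groups overlapped control, and the 72h-αGal libraries lay just above the 18h-αGal libraries. All 18 enterocyte markers were below 0 in log2 difference at 72 h against control, with a median of -0.79, though 0 were called by edgeR. The summed sterol synthesis enzymes showed another order, in which control replicate 3, the library richest in enterocyte markers, had the lowest sum of its group at 922.7 CPM and the 18h-αGal libraries were highest.

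**Figure D4:**
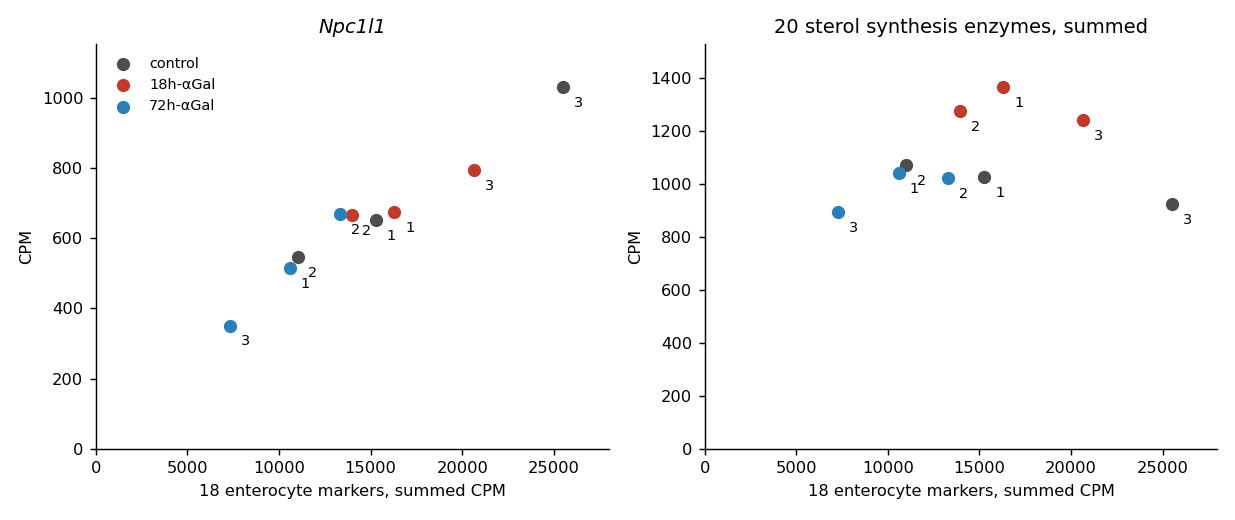
Npc1l1 (left, y axis in CPM) and the summed 20 sterol synthesis enzymes (right, y axis in CPM) against the summed CPM of 18 enterocyte markers (x axis), with 1 point per library, colours for the groups and numbers for the replicates. Npc1l1 runs from 350.7 to 1029 CPM along the enterocyte sum, and on the right the 18h-αGal libraries, at 1240 to 1365 CPM, lie above the others, at enterocyte sums within the control range and above those of 72h-αGal.

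Marker sums of some other cell types and of the interferon response differed from control at 18 h as well. Their part in the rise of the synthesis genes was not tested. Among all genes 3.27% were called higher and 2.69% lower at 18 h against control. Of single genes, 11.5% stood higher and 12.3% lower at 18 h without overlap. The summed CPM of 12 proliferation markers was 1008 to 1771 in control and 1434 to 2107 in 18h-αGal, which overlapped, with 3 of the 12 called higher and a median log2 difference of 0.39. The stem cell sum was 2497 to 5424 in control and 897.1 to 2584 in 18h-αGal, with 1 of 11 called lower and a median of -0.92. The sum of 14 genes induced by interferon-γ was 881 to 1598 in control, 3070 to 3397 in 18h-αGal and 993.4 to 1282 in 72h-αGal, with 10 of 14 called higher at 18 h. Lymphocyte markers summed to 2.007 to 4.772 CPM in 18h-αGal and 3.375 to 5.042 in control, and myeloid markers to 26.35 to 43.37 and 27.34 to 34.91, so the groups overlapped, and S100a9 was not in the table. Endothelial, stromal and erythroid markers, of which 8 of 10 were in the table, summed to 4.156 to 5.513 CPM in control and 1.484 to 2.045 in 18h-αGal, without overlap. Goblet cell markers summed to 11400 to 12570 CPM in control and 6007 to 17880 in 18h-αGal, and Paneth cell markers to 870.2 to 4239 and 1944 to 4191. Enteroendocrine markers, at 551.5 to 635.5 in control and 764.9 to 1194 at 18 h, did not overlap, and tuft cell markers, at 113 to 239.3 and 219.1 to 387.5, did. Of 10 enteroendocrine markers 5 were called higher at 18 h, with a median log2 difference of 0.68. Of 6 tested tuft cell markers 1 was called higher, and of 8 goblet cell and 10 Paneth cell markers 1 and 0. At 72 h the enteroendocrine sum was 265 to 353.2, below control, the myeloid sum 40.55 to 59.37, above it, and the endothelial, stromal and erythroid sum 2.14 to 2.886, below it. Of single genes, 6.36% stood higher and 6.3% lower than control at 72 h without overlap. At 72 h against control 5 of the 10 enteroendocrine markers were called lower by edgeR, which were all 5 genes called in that comparison. Against 18h-αGal 8 of the 10 were called lower (6.04% of all genes). The part of these sums in the 72 h values was not tested.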

How the data were processed

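The 9 RNA-seq libraries were each made from the sorted crypt IECs of 1 mouse, with 3 mice per group. The authors aligned reads, and deposited a table of raw counts per gene and a table of normalised values (a signal: the same counts divided by 1 factor per library). HISAT2, featureCounts of Subread and DESeq2 1.42.0 are named in the submitters' processing notes. The notes name GRCm38 and the methods GRCm39, so the only coordinates given are those of the RefSeq promoter windows, in GRCm38.p6. The annotation release and strand setting are not given in the sources used here. Of 29288 genes, 28480 matched GENCODE vM39 by identifier.

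Genes were filtered with filterByExpr, scaled by TMM and tested with edgeR 4.0.16 (R 4.3.3) in a robust quasi-likelihood fit over all 9 libraries, with group as the only term. P-values were adjusted by Benjamini-Hochberg over 18933 genes and called under 0.05. SE is the absolute log2 fold change divided by the square root of F. The scripts were tested on simulated data. CPM used the total counts of a library as the denominator. Annotated overlaps and shared 50-base words came from GENCODE vM39, and promoters from the RefSeq table. The 19 alternatives covered other scalings, filters, DESeq2, limma-voom (limma 3.58.1), a replicate block, leaving out each library and thinning to the smallest library.

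The 8 genes, the gene and marker lists and the rule for named genes were chosen with earlier results of these data known. The rule named the 8 genes, listed genes called in any comparison (at most 8 a list), listed genes acting directly on the 8, and the 10 genes most correlated with Npc1l1 and with the mean of the other 7. Other uncalled listed genes that are named (Acat1, Mvk, Pmvk, Cyp51, Fdps, Mttp, Abca1, Abcg5, Abcg8, Soat2 and Cyp27a1) were chosen after their values were seen. Of the listed genes, 4 are not reported here and entered no list count or ranking. The p-values test differences between group means against the spread between mice, estimated over all 9 libraries. Anything shared by all mice of a group is not in that spread.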

Additional observations from a re-analysis of the deposited data

Results flagged for a closer look

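The 18h-αGal and 72h-αGal libraries differed by the direct contrast of both times (edgeR adjusted p under 0.05) for the genes listed here. That contrast is 72h-αGal against 18h-αGal, given as a log2 difference. With no PBS group at 72 h, it cannot tell a change in the effect of αGalCer from the time of sampling. Among the 8 cholesterol genes these were Hmgcs1 (-0.57), Sqle (-0.74) and Insig1 (-0.76). Among the other sterol synthesis enzymes they were Acat2 (-0.62), Msmo1 (-0.72), Ebp (-0.67), Sc5d (-0.58) and Dhcr7 (-0.49). Among regulators of SREBP, Erlin1 (-0.40), an endoplasmic reticulum membrane protein, and Vcp (-0.53) were lower at 72 h than at 18 h. Among uptake genes Scarb1 (-0.89) was lower and Cd36 (1.69) was higher at 72 h.

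In the oxysterol, isoprenoid and fatty acid lists, Sult2b1 (-1.59), Nus1 (-0.44), Elovl6 (-0.88), Hsd17b12 (-0.68) and Scd2 (-2.87) were lower at 72 h than at 18 h, and Cyp39a1 (1.44), Acss2 (0.47) and Acacb (1.30) were higher. The call for Erlin1 was lost under 16 of 19 alternatives, those for Sult2b1 and Nus1 under 11 of 19 each, and those for Acat2, Scarb1 and Acss2 under 8 of 19 each. That for Elovl6 was lost under 7 of 19, those for Ebp, Dhcr7 and Cd36 under 5 of 19 each, and those for Hmgcs1, Sc5d and Cyp39a1 under 1 of 19 each, without 72h-αGal replicate 3. With 3 libraries in each group, single libraries were not tested for standing apart from their group.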

How the results depend on the processing

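No gene of the 8 changed direction where it was called, under any of the 19 alternatives. Of the 8 genes, the main 4 called at 18 h ranged from 2 to 4 when 1 library was left out, and fell to 2 without control replicate 1, 18h-αGal replicate 1 or 18h-αGal replicate 2. The 3 called at 72 h against 18 h ranged from 2 to 4, and the 0 called at 72 h against control stayed at 0 in every setting. Of the 20 sterol synthesis enzymes, the 4 called at 18 h were 3 with the replicate block and 1 to 4 when 1 library was left out. The 7 lower at 72 h than at 18 h became 2 to 9 when 1 library was left out, with 2 without 72h-αGal replicate 3 and 4 without 18h-αGal replicate 1 or 2. Over all genes, the 1128 called at 18 h were 593 with only both groups fitted, 781 with the replicate block and 432 to 1556 when 1 library was left out. At 72 h against control the 5 genes were 13 with no filter, 30 with DESeq2, 3 without robust estimation and 1 with the replicate block, and 0 to 20 when 1 library was left out, with 20 without control replicate 3. The 1936 genes at 72 h against 18 h were 1371 with the replicate block and 831 to 2593 when 1 library was left out. Same-numbered libraries did not deviate together (correlations from -0.15 to 0.115), so the numbers were not taken to pair mice, and under the block Hmgcs1 at 18 h was not called. Upper-quartile scaling moved the median log2 difference of all genes to 0.12 at 72 h against 18 h and DESeq2 moved it to -0.11 at 18 h. For changes other than fewer libraries or genes entering a fit, the cause was not tested.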

Other observations

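Genes that make or remove oxysterols were measured in part, with 5 of 10 listed genes passing the filter on low counts. Cyp27a1, which hydroxylates the cholesterol side chain in mitochondria, had 220.8, 216.4 and 444.6 normalised counts in control, 104.7, 97.01 and 208.3 in 18h-αGal, and 221.2, 303.6 and 269.3 in 72h-αGal. Its groups at 18 h and in control did not overlap, and the log2 difference of -1.09 ± 0.34 had an edgeR adjusted p of 0.0739. Cyp39a1, an oxysterol hydroxylase, had 251.4, 290.5 and 142.6 normalised counts in control and 98.99, 147.3 and 68.99 in 18h-αGal, which overlapped, and the log2 difference of -1.12 had an edgeR adjusted p of 0.0568. It was called under 5 of 19 alternatives. Sult2b1, which sulphates cholesterol and oxysterols, had 1096 ± 307 normalised counts at 18 h and 579.8 ± 301 in control (SD, n = 3), a log2 difference of 0.94 ± 0.41 that did not pass (edgeR adjusted p = 0.23).

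Soat2, which esterifies cholesterol in the enterocyte, had 1030, 803.0 and 2116 normalised counts in control and 1973, 1471 and 2154 in 18h-αGal. Control replicate 3, which was also the highest control library for Npc1l1 and for the enterocyte markers, lay within the range of 18h-αGal here. The log2 difference of 0.53 ± 0.35 was not called (edgeR adjusted p = 0.462).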
